A study of Mus musculus with 6 samples.

Results

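The respiratory chain genes described here are those whose mRNAs encode subunits of the mitochondrial complexes I to V. They were chosen by symbol alone: Sdha to Sdhd, Cyc1, and every symbol that starts with Ndufa, Ndufb, Ndufc, Ndufs or Ndufv and a digit, with Uqcr, with a name from Cox4 to Cox8, with Atp5, or with mt-Nd, mt-Co, mt-Cytb or mt-Atp. The isoforms Cox7a1, Cox8b and Cox6a2, which mark muscle and brown fat, were left out. The rule found 95 of the 22040 genes in the table, of which 82 are nuclear and 13 lie on the mitochondrial genome. Complex I has 42 of them (35 nuclear and 7 mitochondrial), complex II has 4, complex III has 10, complex IV has 20 and complex V, the ATP synthase, has 19. Ndufa4 and its paralog Ndufa4l2 were counted with complex IV, where the Ndufa4 protein resides. Cox7a2l, a supercomplex factor, and Atp5s entered through their symbols and are not stable subunits.

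RNA was sequenced from white adipose tissue of 6 mouse samples. The 3 control samples (CTR 1 to 3) came from animals given saline into the peritoneum, and the 3 treated samples (Rb1 1 to 3) from animals given ginsenoside Rb1, a triterpene saponin of ginseng, by the same route at 14 mg/kg/d. The series title places the comparison in work on myostatin and on the anti-obesity action of Rb1. The sources used here do not name the fat depot, diet, strain, sex or age, nor how long the treatment lasted. They also do not say that the 3 samples of a group are separate animals, so the p-values rest on sample spread that could be technical in part.

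The respiratory chain passes electrons from NADH through complex I, and from succinate through complex II, to ubiquinone, then through complex III and cytochrome c to complex IV, which reduces oxygen. Complexes I, III and IV pump protons across the inner mitochondrial membrane, and complex V uses their return to make ATP. In white adipocytes this chain serves the ATP demand of lipid storage and release, and all of it except complex II is built from subunits of both genomes, so the mRNAs of the nucleus and of the organelle have to be read side by side.

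The mitochondrial mRNAs are cut from long transcripts of both strands and lie so close together that some share bases, which limits how reads can be divided among them. The longest shared stretch joins mt-Atp8 and mt-Atp6, subunits of complex V. The whole of mt-Atp8 is shown here from GRCm38, chrM:7766-7969, 5′ to 3′, with the 43 bases that it shares with mt-Atp6 (chrM:7927-7969) in capitals.
mt-Atp8: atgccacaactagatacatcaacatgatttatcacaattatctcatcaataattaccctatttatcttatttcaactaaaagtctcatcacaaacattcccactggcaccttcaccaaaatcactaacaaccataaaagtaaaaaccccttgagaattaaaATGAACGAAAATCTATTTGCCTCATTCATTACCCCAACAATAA
These 43 bases are 21.1% of mt-Atp8. The next 2 sequences show the 3′ ends of mt-Nd4l (chrM:10130-10173) and mt-Nd5 (chrM:13515-13565). Capitals mark the 7 bases shared with mt-Nd4, in another reading frame of the same strand, and the 14 bases that mt-Nd5 shares with mt-Nd6 on the opposite strand.
mt-Nd4l end: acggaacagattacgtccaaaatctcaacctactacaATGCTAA
mt-Nd5 end: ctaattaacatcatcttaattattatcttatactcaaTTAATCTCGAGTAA
The sources used here give no strand setting, so reads in those 14 bases cannot be told apart between mt-Nd5 and mt-Nd6.

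Nuclear members do not share a transcript, and their promoters were read from RefSeq (GRCm38.p6), which held 64 of the 82. Each window runs from 250 bases before to 50 bases after the start. A gene counted as holding a motif if any of its windows did. The core of the NRF1 site, CGCATGCG, reads the same on both strands. It was present in 9 of the 64 genes (14.1%) and in 2.07% of all 27025 genes. The core bound by ETS factors such as GABP (NRF2), CCGGAAG or its reverse complement CTTCCGG, was present in 16 (25%) against 9.93% of all genes. In contrast, TATAAA was present in 6 (9.38%) against 15.7%, and CCAAT in 28 (43.8%) against 41.1%, both searched on both strands. The cores were not spread evenly. In complex I, 4 of 31 genes held the ETS core (12.9%) and 2 held the NRF1 core (6.45%). In complexes II to V the ETS core was in 2 of 3, 2 of 5, 3 of 12 and 5 of 13 genes. The NRF1 core was in 0, 2, 1 and 4 of these. A match describes the letters only. Sdhb (chr4:140961021-140961320, plus strand), Sdhd (chr9:50603800-50604099, minus strand) and Uqcr11 (chr10:80406772-80407071, minus strand) are shown as 2 members of the 1 all-nuclear complex and 1 of the 5 members that hold both cores. All 3 are written 5′ to 3′ on the gene's strand, with the cores in capitals.
Sdhb promoter: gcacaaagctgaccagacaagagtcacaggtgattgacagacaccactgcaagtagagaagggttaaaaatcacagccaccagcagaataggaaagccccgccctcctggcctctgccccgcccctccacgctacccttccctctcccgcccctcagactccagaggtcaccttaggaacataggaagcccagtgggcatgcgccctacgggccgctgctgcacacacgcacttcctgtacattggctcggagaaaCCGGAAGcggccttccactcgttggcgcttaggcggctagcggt
Sdhd promoter: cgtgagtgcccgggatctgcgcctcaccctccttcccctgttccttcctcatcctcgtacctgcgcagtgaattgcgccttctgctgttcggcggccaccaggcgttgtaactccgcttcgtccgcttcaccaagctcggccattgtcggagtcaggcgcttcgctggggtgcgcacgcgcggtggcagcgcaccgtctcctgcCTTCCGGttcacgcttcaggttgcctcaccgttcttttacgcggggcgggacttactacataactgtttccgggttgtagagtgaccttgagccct
Uqcr11 promoter: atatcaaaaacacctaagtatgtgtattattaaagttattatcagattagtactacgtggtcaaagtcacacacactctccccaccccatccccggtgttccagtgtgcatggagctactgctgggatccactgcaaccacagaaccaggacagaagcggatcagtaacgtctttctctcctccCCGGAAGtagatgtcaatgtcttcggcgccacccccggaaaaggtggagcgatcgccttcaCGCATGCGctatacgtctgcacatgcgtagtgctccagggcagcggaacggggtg
The ETS core lies in all 3 and the NRF1 core in Uqcr11. The motifs were not compared with the response to Rb1.

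Total counts ran from 15440339 to 24501446 per library. Adipoq, Plin1, Fabp4 and Lep, which are markers of mature adipocytes, were present in every library at 225 FPKM or more. FPKM is the count scaled to gene length and to the library total. The 10 adipocyte markers together took 1.85% to 2.14% of counts in CTR and 1.87% to 2.38% in Rb1. CTR 2 stood apart: 12 skeletal muscle markers took 3.12% of its counts, against 0.00387% to 0.0446% in the other 5 libraries, and 10 of the 12 were highest there. The left-out muscle isoform Cox6a2 had 736 counts in CTR 2 and 34 or fewer elsewhere. Cox8b and Cox7a1, also left out, were highest in CTR 2 and next highest in Rb1 3. Cox8b was at 9.59, 36.4 and 6.61 FPKM in CTR and 5.08, 6.48 and 24.6 FPKM in Rb1. Cox7a1 was at 1.63, 8.92 and 1.47 FPKM in CTR and 1.47, 0.917 and 3.35 FPKM in Rb1. The brown fat marker Ucp1 was at 0 counts in CTR 3 and Rb1 2 and reached 168 counts in CTR 2, and the 10 brown fat markers summed to 0.0138% to 0.0195% of counts in CTR and 0.0129% to 0.0168% in Rb1. The 8 macrophage markers summed to 0.164% to 0.203% of counts in CTR and 0.0963% to 0.143% in Rb1, and all 6 erythroid markers were highest in Rb1 3. All 5 endothelial markers were highest in Rb1 1, at 0.230% of counts against 0.128% to 0.154% in the other libraries. All 5 fibroblast progenitor markers were highest in Rb1 2, at 0.353% against 0.181% to 0.311%. In bulk tissue, fewer cells of a type and less RNA per cell cannot be told apart.

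No respiratory chain gene passed the test between Rb1 and CTR. Of the 95 genes, 93 passed the expression filter and entered the test over 14093 genes. None of the 93 was called at an adjusted p under 0.05 (edgeR's quasi-likelihood test with Benjamini-Hochberg adjustment), where 1 gene in the whole table was called, 0.0071% of those tested. None of the 93 had an unadjusted p under 0.05 either, against 11.6% of all genes tested. DESeq2 called 2.56% of the 14610 genes it tested and none of the 93. The Rb1 libraries all lay above the CTR libraries for 1 of the 93 genes, Ndufs1, against 5.48% of all genes, and all lay below for none, against 10.5% of all genes.

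The intervals hold for each gene by itself, rest on 3 libraries a group whose spread could be technical in part, and give no joint bound. The 95% interval of the fold change stayed within 2-fold in either direction for 89 of the 93 genes, against 75% of all genes tested, and within 1.5-fold for 66 of the 93, against 47.9%. The 4 genes with wider intervals than 2-fold were Cox4i2, Cox6b2, Atp5g1 and Atp5g2, all with a mean below 3 FPKM. Fold changes ran from -0.40 to 0.36 on the log2 scale, with 51 above and 42 below 0 and a median of 0.013, beside 7235 above, 6858 below and a median of 0.0069 over all genes. The 2 genes without a test were tissue isoforms of complex IV: Cox8c had 0 counts in all 6 libraries, which allows up to 0.122 to 0.194 CPM (the count scaled to the library total alone) at these depths, and Cox7b2 had 3 counts in Rb1 1 and none in the other 5.

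**Figure D1:**
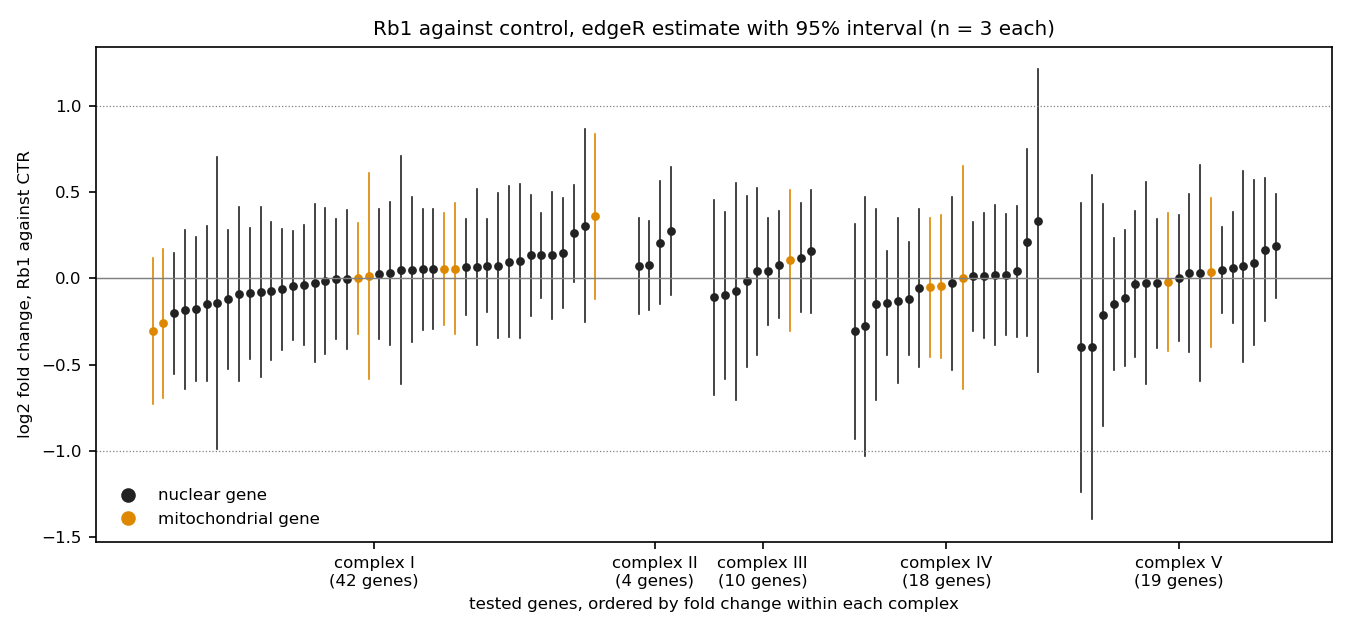
Log2 fold change of Rb1 against CTR (y axis) with its 95% interval for the 93 tested genes, ordered within each complex. Points are edgeR estimates from 3 libraries a group, black for nuclear and orange for mitochondrial genes, and dotted lines mark 2-fold. Every interval includes 0, and the 4 that cross a dotted line belong to complexes IV and V.

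Median log2 fold changes of the 5 complexes lay close to 0 and to each other. They were 0.019 for complex I (23 above and 19 below 0), 0.14 for complex II (4 of 4 above 0), 0.042 for complex III (6 and 4), -0.036 for complex IV (8 and 10) and 0.0025 for complex V (10 and 9). The 80 tested nuclear genes had a median of 0.016 (43 and 37), and the 13 mitochondrial genes a median of 0.0044 (8 and 5). The typical standard error of a single gene was 0.17. Complex II was highest in this order, and the ranges of the members overlapped between all 5 complexes. These medians carry no test, and their values moved with single libraries: without Rb1 3 the nuclear median was -0.14 and the mitochondrial median -0.13, without Rb1 2 they were 0.12 and 0.043, and without CTR 2 they were 0.080 and 0.13.

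Mitochondrially encoded mRNAs took 7.49%, 8.07% and 6.09% of all counts in CTR 1 to 3 and 6.88%, 6.08% and 7.50% in Rb1 1 to 3, a mean of 7.22% ± 1.02 and 6.82% ± 0.711 (SD, n = 3 each). The exact binomial 95% interval of the lowest of these shares, in Rb1 2, was 6.07% to 6.09%, and covers counting error only. The groups overlapped, with the highest share in CTR 2 and the lowest in Rb1 2. The 82 nuclear genes together took 0.642%, 0.692% and 0.616% of counts in CTR and 0.651%, 0.599% and 0.737% in Rb1, again overlapping. Mitochondrial counts were therefore 11.7, 11.7 and 9.88 times the nuclear counts in CTR and 10.6, 10.2 and 10.2 times in Rb1. The ratio was less variable in Rb1 (SD 0.226) than in CTR (SD 1.03), which was not tested, and CTR 3 lay below all 3 Rb1 libraries.

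Levels on the FPKM scale differed far more between genes than between groups. The 13 mitochondrial mRNAs spanned 191 FPKM (mt-Nd6, mean of 6 libraries) to 12758 FPKM (mt-Co1), and the tested nuclear mRNAs 0.265 FPKM (Cox6b2) to 324 FPKM (Cox8a). Cox8a, a small subunit of complex IV, was the only nuclear gene with a mean FPKM above that of the scarcest mitochondrial mRNA, mt-Nd6. The highest nuclear gene was Ndufb3 in complex I (110.3 FPKM), Sdha in complex II (95.7 FPKM), Cyc1 in complex III (83.9 FPKM), Cox8a in complex IV and Atp5b in complex V (167 FPKM). The lowest tested was Ndufb2 (1.25 FPKM), Sdhc (20.2 FPKM), Uqcr10 (16.7 FPKM), Cox6b2 and Atp5g2 (0.387 FPKM), in the same order of complexes. The median nuclear gene of complex I was at 16.2 ± 0.437 FPKM in CTR and 16.5 ± 4.02 in Rb1, that of complex III at 39.4 ± 5.25 and 39.1 ± 9.64, that of complex IV at 17.8 ± 4.92 and 19.0 ± 5.01, and that of complex V at 12.2 ± 1.97 and 12.0 ± 2.05 (SD, n = 3 each).

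These levels depend on the gene length that the authors used. The length behind the FPKM exceeded that of the principal GENCODE transcript by a median of 2.13 times over 81 nuclear genes. It was over 2 times as long in 47 and reached 14.3 times for Atp5l, so the order of genes by FPKM is not the order per mRNA length. With counts scaled to that transcript instead, Cox8a (321) was not the only nuclear gene above mt-Nd6 (191). Atp5b (604), Atp5a1 (252), Cox6a1 (223), Cox4i1 (204) and Sdha (195) also lay above it. The rank correlation of both scales was 0.814 over the 81 nuclear genes, with the same counts behind both scales. Copies add to this. Of the 50-base stretches of the principal transcript, 87.4% in Atp5g2, 84.8% in Atp5l (with 12 pseudogenes), 53.0% in Cox7c and 50.3% in Atp5o recur in another annotated gene. For Atp5o the top match is a further entry of the same name, which shares exon positions with it on the same strand. The sources used here do not say how the authors assigned such reads, which leaves these 4 levels uncertain.

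**Figure D2:**
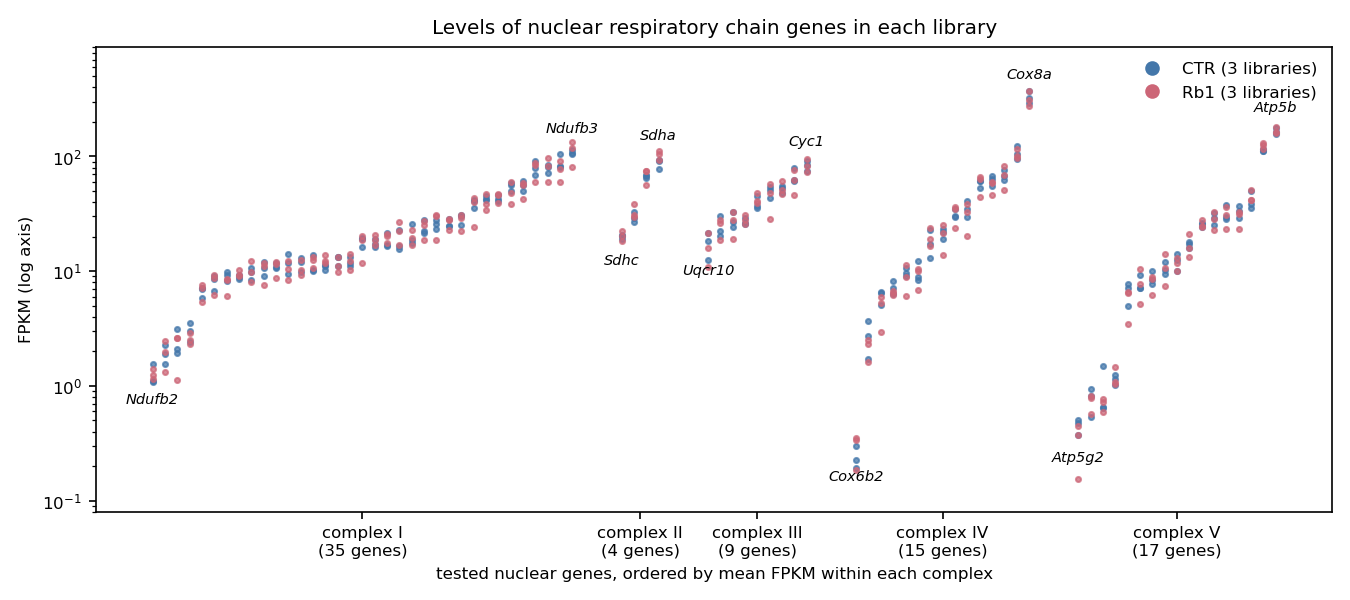
FPKM (log y axis) of the 80 tested nuclear genes in each of the 6 libraries, ordered by mean level within each complex, with CTR in blue and Rb1 in red. The lowest and the highest gene of each complex are named, from 0.265 FPKM for Cox6b2 to 323.8 FPKM for Cox8a, and the red and blue points of a gene lie together.

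In complex I, Ndufs1 came nearest to a difference. It encodes the largest iron-sulphur subunit of the NADH-oxidising arm and lies at chr1:63143596-63176833 (GRCm38). Its level was 11.1, 11.3 and 10.3 FPKM in CTR 1 to 3 and 11.7, 12.4 and 13.8 FPKM in Rb1 1 to 3, so all 3 Rb1 libraries lay above all 3 CTR libraries. Its log2 fold change was 0.26, SE 0.12, adjusted p = 0.468, with a 95% interval of -0.021 to 0.54. The antisense neighbour Eef1b2 shares exon positions with it. Ndufv1, which binds the flavin that takes electrons from NADH, was at 8.88, 9.32 and 8.62 FPKM in CTR and 9.23, 9.10 and 10.2 FPKM in Rb1 (log2 fold change 0.13, SE 0.10, adjusted p = 0.685), and the groups overlapped. The 7 nuclear core subunits had a median log2 fold change of 0.073 with 6 above 0, and the 28 accessory subunits a median of -0.011 with 12 above and 16 below 0. No member of either set was called, and the 2 sets were not compared by a test.

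Among accessory subunits of complex I, Ndufv3 had the largest estimate above 0 and Ndufa11 the largest below. Ndufv3, a small subunit of the NADH-oxidising arm, was at 15.7, 22.8 and 16.7 FPKM in CTR and 16.8, 22.3 and 26.8 FPKM in Rb1. CTR 2 lay with Rb1 2, and the lowest CTR and Rb1 libraries differed little (log2 fold change 0.31, SE 0.24, adjusted p = 0.683). Ndufa11, in the membrane arm, was at 9.22, 9.78 and 8.19 FPKM in CTR and 8.38, 6.13 and 8.47 FPKM in Rb1, where only Rb1 2 lay below the CTR libraries (log2 fold change -0.20, SE 0.15, adjusted p = 0.666). Ndufa1, also in the membrane arm, was at 104, 83.0 and 81.0 FPKM in CTR and 78.1, 59.5 and 92.1 FPKM in Rb1, with Rb1 1 and Rb1 2 below the CTR libraries and Rb1 3 among them (log2 fold change -0.18, SE 0.18, adjusted p = 0.768). Ndufb3 and Ndufb2, the highest and lowest of the complex by FPKM, had log2 fold changes of 0.075 and 0.067.

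Complex II, succinate dehydrogenase, also works in the TCA cycle and is the 1 complex with all subunits encoded in the nucleus. Sdha, its flavoprotein at chr13:74322254-74350280, was at 78.2, 93.7 and 92.0 FPKM in CTR 1 to 3 and 93.4, 105 and 111 FPKM in Rb1 1 to 3. CTR 1 was the lowest library and Rb1 3 the highest, and Rb1 1 lay just under CTR 2 (log2 fold change 0.28, SE 0.16, adjusted p = 0.569). Sdhb, the iron-sulphur subunit at chr4:140961203-140979193, was at 29.0, 32.8 and 26.9 FPKM in CTR and 31.0, 29.4 and 38.9 FPKM in Rb1, and the Rb1 estimate rested on Rb1 3 (log2 fold change 0.21, SE 0.15, adjusted p = 0.659, and 0.051 without that library). The membrane anchors Sdhc (chr1:171127165-171150603) and Sdhd (chr9:50596357-50603812), which hold the haem and help to form the ubiquinone site, were at 20.1, 20.7 and 19.1 FPKM in CTR and 20.3, 18.5 and 22.6 FPKM in Rb1 and at 68.7, 67.0 and 64.7 FPKM in CTR and 74.3, 56.1 and 74.2 FPKM in Rb1. Their groups overlapped (log2 fold changes 0.076 and 0.071).

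Summed over its 4 genes, complex II took 0.0700%, 0.0801% and 0.0767% of counts in CTR and 0.0802%, 0.0837% and 0.0938% in Rb1. The groups met at their edges, CTR 2 against Rb1 1, without crossing. On the TMM-scaled log2 CPM scale all 4 genes were highest in Rb1 3, while on the FPKM scale Sdhd was level between Rb1 1 and Rb1 3. The median log2 fold change of 0.14 was 0.016 without that library and 0.27 with the trend on gene length removed, so its sign held in every setting tried while its size did not. Sdhb was at 0.371, 0.351 and 0.292 of the Sdha level in CTR and 0.332, 0.280 and 0.349 in Rb1, and Sdhd at 3.41, 3.23 and 3.39 times the Sdhc level in CTR and 3.66, 3.04 and 3.29 times in Rb1. Both ratios overlapped between groups.

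Complex III takes electrons from ubiquinol through mt-Cytb, the Rieske protein Uqcrfs1 and cytochrome c1, the product of Cyc1. Cyc1 (chr15:76343523-76346260) was at 84.9, 91.9 and 75.1 FPKM in CTR 1 to 3 and 83.0, 73.9 and 94.6 FPKM in Rb1 1 to 3, a mean of 84.0 ± 8.44 FPKM in CTR and 83.8 ± 10.4 in Rb1 (SD, n = 3 each). The groups shared nearly the same range (log2 fold change 0.042, SE 0.13, adjusted p = 0.937, 95% interval -0.27 to 0.35). Uqcrfs1 was at 53.0, 55.5 and 47.9 FPKM in CTR and 51.4, 47.1 and 61.5 FPKM in Rb1 (log2 fold change 0.079). The core proteins Uqcrc1 and Uqcrc2, which face the matrix, had log2 fold changes of 0.12 and 0.16, and the small subunits Uqcrb, Uqcrh, Uqcr10 and Uqcr11 had -0.10, -0.018, -0.074 and -0.11. Uqcr11, whose promoter is printed above, was at 51.3, 54.1 and 43.6 FPKM in CTR and 47.7, 28.6 and 57.6 FPKM in Rb1, and Rb1 held both its lowest library, Rb1 2, and its highest, Rb1 3. The smallest adjusted p in the complex was 0.755.

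Complex IV has 3 mitochondrial catalytic subunits and a coat of nuclear ones, several of which come as isoform pairs. Cox4i1, the common form of the subunit that assembly starts on, was at 64.1, 67.5 and 55.8 FPKM in CTR 1 to 3 and 60.4, 46.1 and 58.5 FPKM in Rb1 1 to 3 (log2 fold change -0.14, SE 0.13, adjusted p = 0.735). Its hypoxia-linked partner Cox4i2 was at 3.64, 2.74 and 1.70 FPKM in CTR and 2.30, 1.61 and 2.49 FPKM in Rb1, which is 0.0568, 0.0407 and 0.0306 of Cox4i1 in CTR and 0.0380, 0.0350 and 0.0426 in Rb1. Ndufa4l2, the hypoxia-induced paralog of Ndufa4, reached 0.557, 0.363 and 0.466 of the Ndufa4 level in CTR and 0.483, 0.495 and 0.397 in Rb1, with means of 0.462 ± 0.0970 and 0.459 ± 0.0533 (SD, n = 3 each). Cox6b2, best known from testis, was at 0.00347 ± 0.000426 of the level of Cox6b1 in CTR and 0.00424 ± 0.000641 in Rb1. The groups overlapped in all 3 ratios.

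The other nuclear subunits of complex IV overlapped between the groups as well. Cox8a, the most abundant, was at 371, 289.8 and 321 FPKM in CTR and 308, 277 and 375 FPKM in Rb1 (log2 fold change 0.015, SE 0.15, adjusted p = 0.986). Cox6a1, whose muscle partner is the left-out Cox6a2, was at 124, 95.1 and 105 FPKM in CTR and 101, 97.7 and 117 FPKM in Rb1 (log2 fold change 0.011). Cox5b, the zinc-binding subunit, was at 17.4, 22.9 and 13.1 FPKM in CTR and 19.1, 16.6 and 24.0 FPKM in Rb1. Its log2 fold change of 0.21, SE 0.23, adjusted p = 0.791, became 0.45 without CTR 2. Cox7c was at 6.41, 6.64 and 5.07 FPKM in CTR and 5.25, 2.94 and 5.98 FPKM in Rb1, with Rb1 2 lowest (log2 fold change -0.31, SE 0.26, adjusted p = 0.720). Cox6b1, Cox6c, Cox7a2, Cox7b, Ndufa4 and Cox7a2l had log2 fold changes of 0.018, -0.12, 0.040, -0.15, -0.027 and 0.021. The smallest adjusted p in the complex was 0.720.

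In complex V the 2 genes of the catalytic hexamer had the highest nuclear FPKM. Atp5b, the beta subunit that carries the catalytic sites, was at 158, 176 and 165 FPKM in CTR 1 to 3 and 159, 164 and 182 FPKM in Rb1 1 to 3 (log2 fold change 0.063, SE 0.14, adjusted p = 0.906). Its partner Atp5a1, the alpha subunit, was at 111, 116 and 111 FPKM in CTR and 116, 131 and 125 FPKM in Rb1, where CTR 2 and Rb1 1 were level (log2 fold change 0.19, SE 0.13, adjusted p = 0.637). The products of both genes share the hexamer in equal number, and the ratio of the Atp5a1 level to the Atp5b level was 0.698, 0.660 and 0.673 in CTR and 0.728, 0.800 and 0.688 in Rb1. Atp5c1, the rotating gamma subunit, and Atp5f1, in the peripheral stalk, had log2 fold changes of 0.17 and -0.15. Atp5mpl, a small membrane protein of the complex, had -0.21 and Atp5s 0.092.

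Atp5g1, Atp5g2 and Atp5g3 encode the same mature protein, subunit c of the rotor ring, and differ in the targeting sequence that is removed. Atp5g3 gave 93.7%, 84.6% and 92.2% of the counts of the 3 genes in CTR and 91.6%, 91.8% and 93.1% in Rb1. The Atp5g1 share was 14.4% in CTR 2 and 5.46% to 7.77% in the other 5 libraries. Atp5g1 had 344 counts in CTR 2, the library with the muscle transcripts, and 89 to 172 in the others. Its log2 fold change of -0.40, SE 0.35, adjusted p = 0.732, the most negative of all members, was 0.13 without CTR 2. Atp5g2 gave 0.843%, 1.04% and 0.873% of the counts of the 3 genes in CTR and 0.806%, 0.437% and 0.819% in Rb1, which did not overlap and was not tested. Atp5g2 had only 19, 25 and 16 counts in CTR and 16, 5 and 23 in Rb1. It was at 0.471, 0.504 and 0.376 FPKM in CTR and 0.375, 0.153 and 0.445 FPKM in Rb1 with Rb1 2 lowest (log2 fold change -0.40, SE 0.42, adjusted p = 0.785), and its level is uncertain for the copies named above.

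Among the 13 mitochondrial mRNAs, that of the catalytic subunit of complex IV, mt-Co1 (chrM:5328-6872), had the highest FPKM in every library. It was at 13963, 14622 and 10907 FPKM in CTR 1 to 3 and 11969, 11267 and 13817 FPKM in Rb1 1 to 3 (log2 fold change -0.045, SE 0.17, adjusted p = 0.952). It made up 28.8%, 28.0% and 27.7% of the mitochondrial counts in CTR and 26.9%, 28.6% and 28.5% in Rb1. The copper-binding mt-Co2 was at 6633, 7450.2 and 5610.1 FPKM in CTR and 6245, 5237 and 6958 FPKM in Rb1, and mt-Co3, which supports the core, at 3623, 4603 and 2499 FPKM in CTR and 3809.8, 2474 and 4167 FPKM in Rb1. For both, CTR 2 was the highest library (log2 fold changes -0.051 and 0.0044). The cytochrome b mRNA of complex III, mt-Cytb, was at 6956, 7231 and 5738 FPKM in CTR and 6243, 6531 and 7936 FPKM in Rb1 (log2 fold change 0.10, SE 0.17, adjusted p = 0.870).

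The ATP synthase mRNAs mt-Atp8 and mt-Atp6 lie on 1 transcript. The proton channel subunit mt-Atp6 was at 7743, 8951 and 6626 FPKM in CTR and 7481, 6497 and 8314 FPKM in Rb1, and mt-Atp8, in the stator, at 9146, 10338 and 8096 FPKM in CTR and 11425, 7045 and 9153 FPKM in Rb1 (log2 fold changes -0.021 and 0.036). The ratio of their levels was 0.847, 0.866 and 0.819 in CTR and 0.655, 0.922 and 0.908 in Rb1, a coefficient of variation of 11.6% over the 6 libraries. The pair mt-Nd4 and mt-Nd4l, which also share bases on 1 strand, had a ratio of 0.854 to 0.917 with a coefficient of variation of 2.99%. These membrane-arm subunits of complex I were at 5999.5, 6795 and 5129 FPKM in CTR and 5716, 5947 and 6398 FPKM in Rb1 and at 7024, 7412 and 5909.9 FPKM in CTR and 6620.2, 6822 and 7023 FPKM in Rb1 (log2 fold changes 0.057 and 0.054).

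The remaining membrane-arm mRNAs of complex I included the most negative and the most positive estimates among mitochondrial genes. The first gene behind the ribosomal RNAs, mt-Nd1, was at 7337, 7708 and 5648 FPKM in CTR 1 to 3 and 6142, 4353 and 5793 FPKM in Rb1 1 to 3. Rb1 2 was the lowest, and CTR 3 lay under Rb1 1 and Rb1 3, so the groups overlapped (log2 fold change -0.30, SE 0.18, adjusted p = 0.580, 95% interval -0.73 to 0.12). Its neighbour mt-Nd2 was at 4585, 5309 and 3903 FPKM in CTR and 4037, 2988 and 4171 FPKM in Rb1 (log2 fold change -0.26, SE 0.18, adjusted p = 0.647). In contrast, mt-Nd6, the 1 subunit encoded on the other strand, was at 151, 206 and 155 FPKM in CTR and 199, 176 and 262 FPKM in Rb1, and Rb1 1 and Rb1 2 lay under CTR 2 (log2 fold change 0.36, SE 0.20, adjusted p = 0.557, 95% interval -0.12 to 0.84). The level of mt-Nd6 was 0.0325 to 0.0605 of that of mt-Nd5, its antisense neighbour, with a coefficient of variation of 20.5%. The mRNAs mt-Nd3 and mt-Nd5 were at 484, 552 and 346 FPKM in CTR and 521, 298 and 537 FPKM in Rb1 and at 4631, 4499 and 3867 FPKM in CTR and 4529, 3762 and 4340.2 FPKM in Rb1 (log2 fold changes 0.013 and 0.0011).

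Relative to mt-Cytb, the levels of mt-Nd1 and mt-Nd2 did not overlap between groups. The mt-Nd1 level was 1.055, 1.066 and 0.9843 times the mt-Cytb level in CTR and 0.9839, 0.667 and 0.730 times in Rb1. The mt-Nd2 level was 0.659, 0.734 and 0.680 of the mt-Cytb level in CTR and 0.647, 0.458 and 0.526 in Rb1. Rb1 1 lay beside the lowest CTR library in both ratios, and the other 2 Rb1 libraries lay well under it. These ratios were among 23 computed and were chosen after their values were seen, so no test is given, and with 3 libraries against 3 no exact permutation test could go below p = 0.1. Parts of the mitochondrial genes recur in another annotated gene. They include 62.2% of the 50-base stretches of mt-Nd4, 98.0% of mt-Nd3 and 51.1% of mt-Co1. All or nearly all of mt-Co2, mt-Co3, mt-Atp6 and mt-Nd4l recur as well, and none of mt-Nd1, mt-Nd6, mt-Cytb or mt-Atp8. The sources used here do not say how such reads were assigned, so the levels of the genes with copies, and their order, are uncertain.

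**Figure D3:**
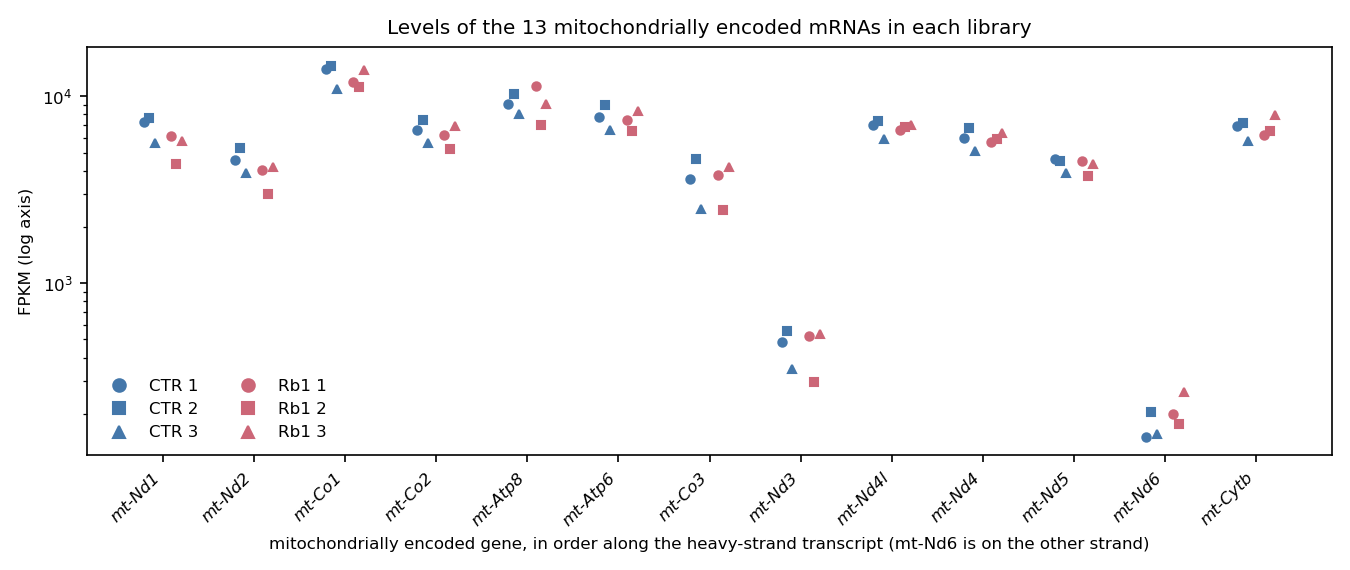
FPKM (log y axis) of the 13 mitochondrially encoded mRNAs, in their order along the genome, with 1 point per library (CTR blue, Rb1 red, symbols for replicates 1 to 3). mt-Co1 lies highest (mean 12758 FPKM), mt-Nd3 (456 FPKM) and mt-Nd6 (191 FPKM) lie far under the other 11, and red and blue points overlap at every gene. Levels of genes whose sequence recurs in another annotated gene, mt-Nd3 and mt-Co1 among them, are uncertain.

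The spread within Rb1 exceeded the difference between the groups. Of the 80 tested nuclear genes, 51 had their lowest library in Rb1 2 and 51 had their highest in Rb1 3, where 21.8% of all genes tested were lowest in Rb1 2 and 14.1% highest in Rb1 3. Measured from the mean of the 6 libraries on the log2 CPM scale, the median nuclear gene lay at -0.036, 0.14 and -0.080 in CTR and at -0.032, -0.27 and 0.24 in Rb1, while the median over all genes lay within 0.01 of 0 in every library. The pattern held in complexes I, III, IV and V, whose nuclear medians in Rb1 2 were -0.25, -0.30, -0.33 and -0.29 and in Rb1 3 were 0.24, 0.29, 0.26 and 0.23. Complex II shared the rise in Rb1 3 (0.26) and not the low value in Rb1 2 (-0.040). Of the 13 mitochondrial genes, 8 were highest in CTR 2 and 7 lowest in CTR 3, and their median was -0.15 in Rb1 2 and 0.19 in Rb1 3.

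**Figure D4:**
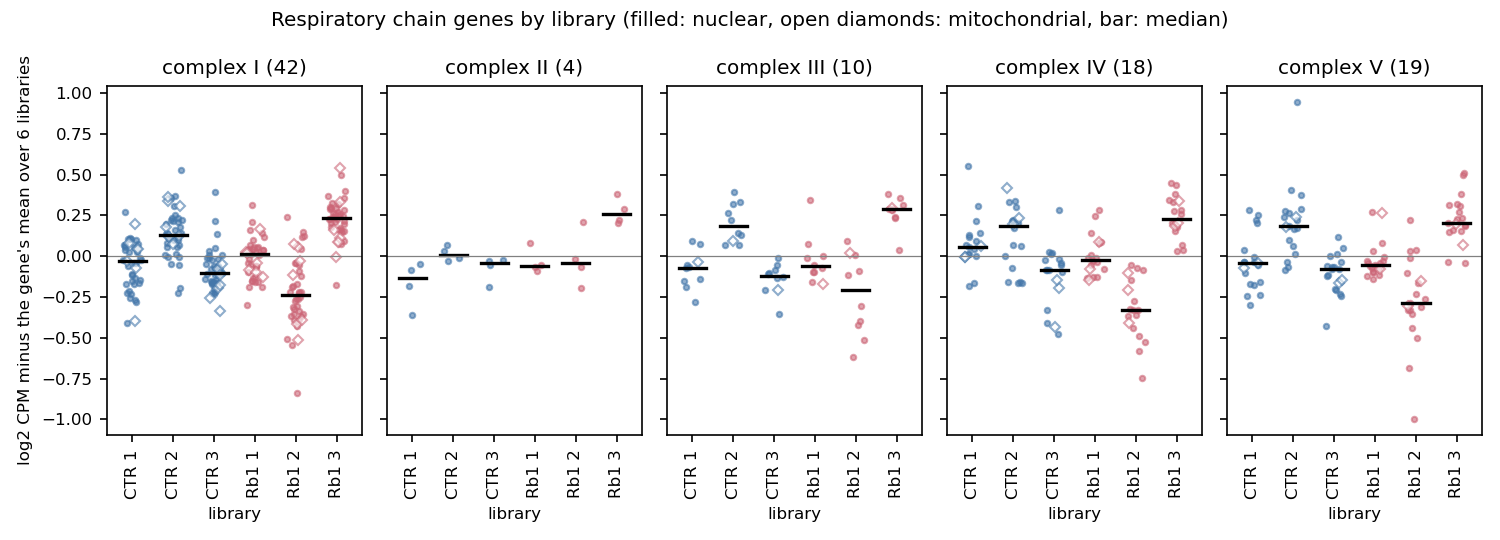
Log2 CPM minus the gene's mean over 6 libraries (y axis) for the tested genes of each complex in each library (x axis), with CTR in blue and Rb1 in red, filled circles for nuclear genes, open diamonds for mitochondrial genes and a bar for the median. Rb1 2 lies lowest in complexes I, III, IV and V and Rb1 3 highest in all 5.

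Gene length moved with the low values in Rb1 2 and little with the high values in Rb1 3. In Rb1 2 the shorter nuclear members (up to 2488 bases, the median of the 80) had a median deviation of -0.33 and the longer ones -0.095, and in Rb1 3 the medians were 0.26 and 0.23. Over all genes the medians on either side of 2488 bases were -0.15 and 0.018 in Rb1 2. Across the 80 nuclear members the rank correlation of length and deviation was 0.467 in Rb1 2, -0.253 in Rb1 3 and -0.506 in CTR 1, as a description of genes that share each library. A fit with the trend on length removed, added after the data were seen, gave medians of 0.13 for nuclear members and 0.16 for mitochondrial members, beside 0.068 for all genes, and called no member. Without both CTR 2 and Rb1 2, also added after the data were seen, they were 0.18 and 0.16, again with no member called. The part of length and of the muscle transcripts in the members' values was not tested beyond these fits.

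**Figure D5:**
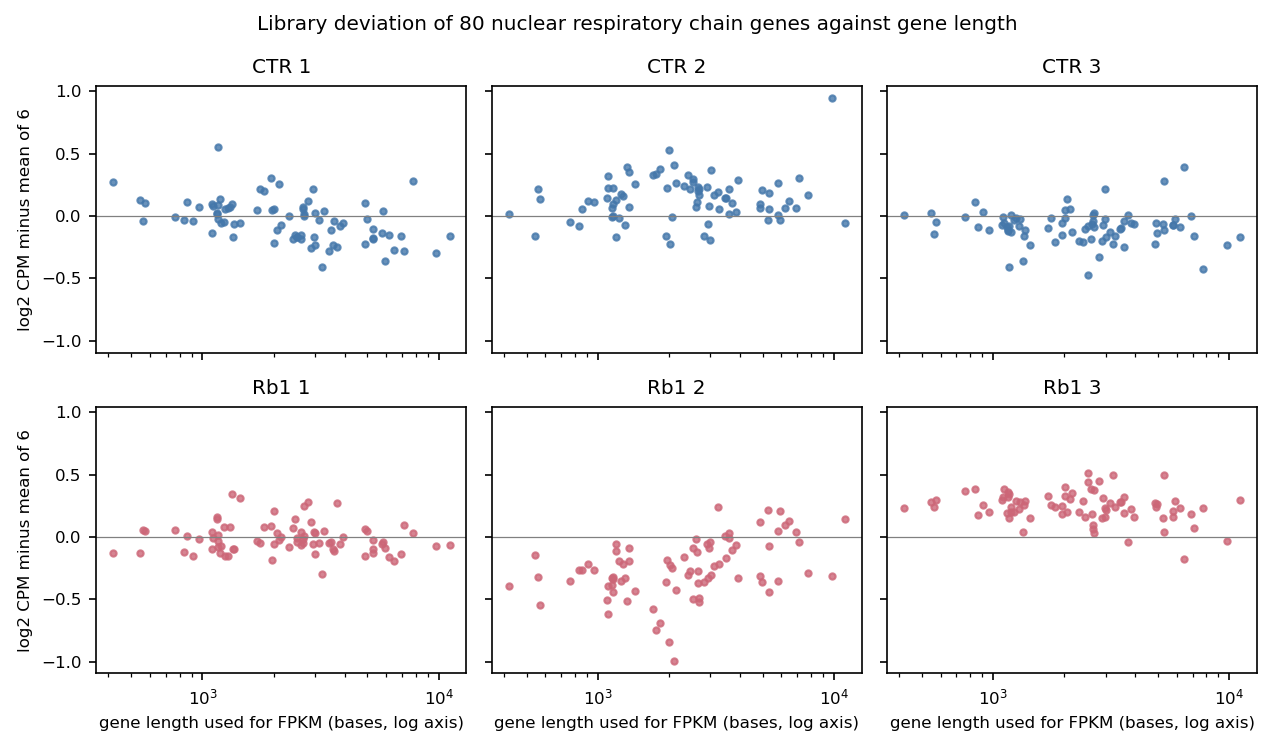
Log2 CPM minus the gene's mean over 6 libraries (y axis) against the gene length behind the FPKM (log x axis, bases) for the 80 tested nuclear genes, 1 panel per library, CTR in blue and Rb1 in red. Rb1 2 slopes up (rank correlation 0.467), CTR 1 slopes down (-0.506), and Rb1 3 lies above 0 at nearly all lengths.

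Genes that build, feed and regulate the chain were not called either, in any of 8 lists. Assembly factors of complex I had 10 of 17 estimates above 0 (median log2 fold change 0.013), those of complexes II to V 22 of 36 (0.070), electron carriers and ubiquinone synthesis 11 of 17 (0.11), mitochondrial transcription and RNA handling 14 of 20 (0.14), nuclear regulators 6 of 11 (0.056), the mitochondrial ribosome 16 of 30 (0.014), the TCA cycle 11 of 13 (0.13) and mitochondrial membranes and import 11 of 18 (0.013). These medians were recomputed without CTR 2 and without Rb1 2 only. How far their size or sign depends on any other library was not tested. Several of the medians moved, and that of nuclear regulators changed sign without Rb1 2. Without Rb1 2 they were -0.071 for nuclear regulators, 0.111 for assembly factors of complexes II to V, 0.048 for those of complex I, 0.087 for the mitochondrial ribosome and 0.091 for membranes and import. Without CTR 2 they were 0.104 for assembly factors of complex I, 0.123 for those of complexes II to V, 0.046 for the mitochondrial ribosome, 0.062 for membranes and import and 0.209 for the TCA cycle.

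Ndufaf4, a complex I assembly factor, was at 2.54, 0.837 and 2.70 FPKM in CTR and 0.972, 0.750 and 0.815 FPKM in Rb1, so CTR 2 lay among the Rb1 libraries (log2 fold change -1.22, SE 0.42, adjusted p = 0.341). Atpaf2, an assembly factor of the ATP synthase head, was at 17.6, 16.7 and 16.3 FPKM in CTR and 21.0, 19.1 and 23.2 FPKM in Rb1 (log2 fold change 0.37, SE 0.10, adjusted p = 0.277). Lrpprc, which stabilises mitochondrial mRNAs, was at 4.72, 5.53 and 5.37 FPKM in CTR and 6.01, 6.22 and 6.54 FPKM in Rb1 (log2 fold change 0.31, SE 0.12, adjusted p = 0.410). The groups of these 2 genes did not overlap, with Rb1 higher, as for 5.48% of all genes. The nuclear receptor Esrra, a regulator of respiratory chain genes, was at 9.10, 8.44 and 7.24 FPKM in CTR and 6.33, 6.21 and 6.85 FPKM in Rb1 (log2 fold change -0.31, SE 0.12, adjusted p = 0.402). The mitoribosomal gene Mrps23 was at 17.1, 15.8 and 12.9 FPKM in CTR and 11.9, 8.07 and 11.0 FPKM in Rb1 (log2 fold change -0.52, SE 0.16, adjusted p = 0.299). These 2 did not overlap either, with Rb1 lower, as for 10.5% of all genes. All 4 were chosen for their small unadjusted p and do not stand for a count over the lists. Of the genes with the smallest p in each of the 8 lists, more lay wholly higher in Rb1 than wholly lower. Tmem186, Coq4, Pnpt1, Mrpl9, Ogdh, Opa1 and Hspa9 were among the higher, and Sco2, Esrra and Mrps23 were the lower. How many genes of the whole lists did so was not counted.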

How the data were processed

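Per the file headers, the deposited table holds raw read counts and FPKM per gene for the 6 samples, both made by the authors. Per the submitters' processing notes, CASAVA 1.8 and TopHat2 2.0.6 were used with mm10. The sources used here do not name the counting tool, annotation or strand setting. Each deposited FPKM value was the count over the product of a gene length and its column's total (largest spread 0.00984% over 13169 genes), so a gene that takes many counts lowers the FPKM of all others. Counts were used for tests and FPKM for levels.

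The test was edgeR 4.0.16 in R 4.3.3: TMM normalization, the default expression filter (minimum count 10, minimum total 15), quasi-likelihood test without covariates on 14093 genes, and a threshold of 0.05 on Benjamini-Hochberg adjusted p-values. The biological coefficient of variation was 24.8%. In counts simulated for this comparison on 13978 genes 34% of the genes changed 2-fold and 91% of those changed 4-fold were recovered, and 12 of 137 calls were false. A count of 0 was read as at most 3 counts, and intervals are at 95%. Reads carry no molecular identifiers, so counting intervals cover counting error only. No pair of libraries agreed within sampling noise (chi-square per degree of freedom at least 31.7).

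Members and lists were chosen with earlier results of these data known. Named members are the mitochondrial genes, the Sdh genes, Cyc1, the isoform pairs, the highest and lowest gene of each complex, and up to 4 with the smallest p in each direction in complexes I, III, IV and V. Of each further list up to 4 genes with the smallest p could be named, and genes outside the rule are named for a stated count. Alternatives were DESeq2 1.42.0, other size factors, no filter, nuclear genes only, a replicate block, other memberships and each library left out. The medians of the further lists were recomputed with only some of the libraries left out. Coordinates are those of GRCm38 (mm10) in GENCODE M21. Of the 95 genes, 38 share exon positions with another gene, among them Ndufs1, Ndufa11, Ndufb2, Uqcrb, Uqcrc2, Cox4i1, Cox6c, Ndufa4l2, Atp5a1, Atp5f1 and most mitochondrial genes, and without a strand setting reads of such genes cannot be told apart.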

Additional observations from a re-analysis of the deposited data

How the results depend on the processing

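No respiratory chain gene was called in any setting, and the smallest adjusted p of a member in any of them was 0.278. The median of each complex stayed within 1 SD between replicates of its main value in every setting. That SD comes from the same libraries, so leaving 1 out could hardly move a median past it, and stability cannot be read from this. With libraries left out, the median ran from -0.11 to 0.19 for complex I and -0.084 to 0.20 for complex III. It ran from -0.17 to 0.14 for complex IV and -0.16 to 0.17 for complex V. Complex II was the 1 complex with a median above 0 throughout. The count of all genes called was 1, against 374 with DESeq2, 1 to 4 with 1 library left out (3, 4 and 2 without Rb1 1, 2 and 3) and 2 without CTR 2 and Rb1 2. With the replicate block it was 1 gene and 0 members. Same-numbered samples deviated together with correlations of 0.136, -0.109 and 0.018, so the numbers were not shown to pair the samples. In the simulated data over all genes 34% of 2-fold changes were recovered, and smaller changes were not simulated. The medians of complexes I, III, IV and V have no value with nuclear genes only, since their mitochondrial genes are then absent.

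Of 54 named and tested genes, 35 changed sign in some setting and 19 did not, and none of the changes of sign involved a call. The cause was not tested. With the replicate block, the log2 fold change was -0.0073 for Cox6b1 and -0.0041 for mt-Nd3. With the trend on length removed it was 0.058 for Atp5g3, 0.076 for Ndufa4, 0.058 for Ndufa4l2, 0.067 for Uqcr10, 0.020 for Uqcr11, 0.044 for Uqcrb, 0.10 for Uqcrh, 0.15 for mt-Atp6, 0.10 for mt-Co1 and 0.12 for mt-Co2. Leaving out each library in turn, and CTR 2 with Rb1 2, gave log2 fold changes of -0.019 to 0.14 for Atp5b, -0.27 to 0.074 for Atp5f1, -0.62 to 0.21 for Atp5g1, -0.22 to 0.10 for Atp5g3, -0.39 to 0.15 for Atp5mpl, -0.034 to 0.24 for Atp5s, -0.21 to 0.018 for Cox4i1, -0.095 to 0.087 for Cox6a1, -0.18 to 0.16 for Cox6b1, -0.10 to 0.19 for Cox7a2, -0.071 to 0.20 for Cox7a2l, -0.38 to 0.19 for Cox7b, -0.55 to 0.0064 for Cox7c, -0.14 to 0.084 for Cox8a, -0.077 to 0.18 for Cyc1, -0.25 to 0.24 for Ndufa4, -0.16 to 0.10 for Ndufa4l2, -0.046 to 0.31 for Ndufb2, -0.024 to 0.16 for Sdhc, -0.018 to 0.18 for Sdhd, -0.28 to 0.31 for Uqcr10, -0.37 to 0.19 for Uqcr11, -0.31 to 0.20 for Uqcrb, -0.060 to 0.20 for Uqcrfs1, -0.22 to 0.29 for Uqcrh, -0.13 to 0.17 for mt-Atp6, -0.10 to 0.28 for mt-Atp8, -0.16 to 0.090 for mt-Co1, -0.17 to 0.14 for mt-Co2, -0.19 to 0.42 for mt-Co3, -0.030 to 0.21 for mt-Cytb, -0.16 to 0.39 for mt-Nd3, -0.029 to 0.17 for mt-Nd4, -0.023 to 0.13 for mt-Nd4l and -0.061 to 0.092 for mt-Nd5.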
